A study of Mus musculus with 6 samples.

Results

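The histone genes of the mouse were followed in neurons sorted by flow cytometry from E14.5 embryonic brain, with a gfp allele of Pitx3 as the marker. Members were the probes, controls aside, whose symbol in the platform annotation began with Hist1h to Hist4h, H1f, H2af, H3f or a newer histone prefix. The rule found 63 probes for 50 genes, among 18295 genes measured. By platform symbol, 37 of the 50 were classed as replication-dependent (Hist1h to Hist4h), called clustered here, and 13 as variants. Current symbols are used, with the platform's own symbol at first mention. The null group was 1 pool of Pitx3(gfp/-) neurons, labelled Pitx3-GFP/AK, in which neither Pitx3 allele is a wild-type one. The heterozygous group was 3 pools of Pitx3(gfp/+) neurons, labelled Pitx3-GFP/wt-1 to wt-3, which keep 1 wild-type allele. Every cell in both groups therefore carried the gfp allele, and no pool was fully wild type. Each heterozygous pool held several embryos and 69000 to 83000 cells, and each shared 1 dye-swapped pair of arrays with the single null pool, 6 arrays in all. The labels call the sorted cells mdDA neurons.

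Histones package DNA into nucleosomes, each built from the core histones H2A, H2B, H3 and H4, with the linker histone H1 binding the DNA between them. The clustered genes are many near-identical copies, transcribed mainly in S phase to supply new chromatin, and most of their mRNAs end in a stem-loop in place of a poly(A) tail. The variant genes of H3.3 and H2A.Z lie alone, carry introns and give polyadenylated mRNA, which does not hold for every variant gene. The H3.3 and H2A.Z genes are used outside S phase as well, which makes them a main source of new histone in post-mitotic neurons. The RNA here was copied from a T7 promoter primer and amplified in 2 rounds, and the form of each histone mRNA that was captured was not measured.

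Pitx3 itself read -0.45, 0.12 and 0.07 in pools 1 to 3 (log2 ratio -0.08 ± 0.32, SD, n = 3 pools; limma adjusted p = 0.811), with signal above background in both RNAs on 6 arrays. Where its probe lies relative to the altered part of the alleles is not known here, so this value checks no label. Each RNA had 47.6% to 71.4% of all genes well above background, depending on the array. A gene was counted as above background when either RNA passed on 3 or more arrays. By that measure 11 of the 15 dopaminergic markers and 11 of the 12 post-mitotic neuronal markers were present, and Th and En1, which define these neurons, were not found on any array. In sorted bulk RNA, fewer cells of a type and less RNA per cell cannot be told apart. Across genes, log2 ratios correlated at 0.61 to 0.72 within a pool's dye-swapped pair. For arrays of unlike pools, r was 0.53 to 0.63 in 1 dye orientation and 0.37 to 0.50 across orientations. These are across genes, which are not independent replicates. All 6 arrays held the same null RNA, which by itself can make ratios from unlike pools correlate. All ratios read null over heterozygous, on the log2 scale, after background correction with an offset that draws the ratios of dim probes toward 0.

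Of the 50 histone genes, 12 rose in the null pool and 0 fell (limma, Benjamini-Hochberg over all 18295 genes, threshold 0.05). That is 24% higher, against 3.09% of all genes, and none lower, against 1.87% of all genes. At an unadjusted p under 0.05, 25 histone genes were higher and 0 lower, against 10.8% and 9.66% of all genes. Of all genes, 4.96% were called in either direction. Of all genes above background, 4.60% rose and 2.78% fell, and 40 of the 50 histone genes were above background, 27 of 37 replication-dependent and 13 of 13 variant. The log2 ratio lay above 0 in all 3 pools for 33 of the 50, against 22.1% of all genes. Both classes held calls: 9 of 37 replication-dependent genes (24.3%) and 3 of 13 variants (23.1%). By type, 7 of 19 H2A genes, 3 of 6 H4 genes, 1 of 8 H1 genes and 1 of 7 H3 genes rose, and 0 of 10 H2B genes did. Most histone genes are short and most clustered ones lack introns, and 41 of 49 with a known span covered at most 5000 bases. Among the 2132 other genes above background with such a span, 8.96% rose and 0.844% fell; the part of gene length in the histone ratios was not tested.

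**Figure D1:**
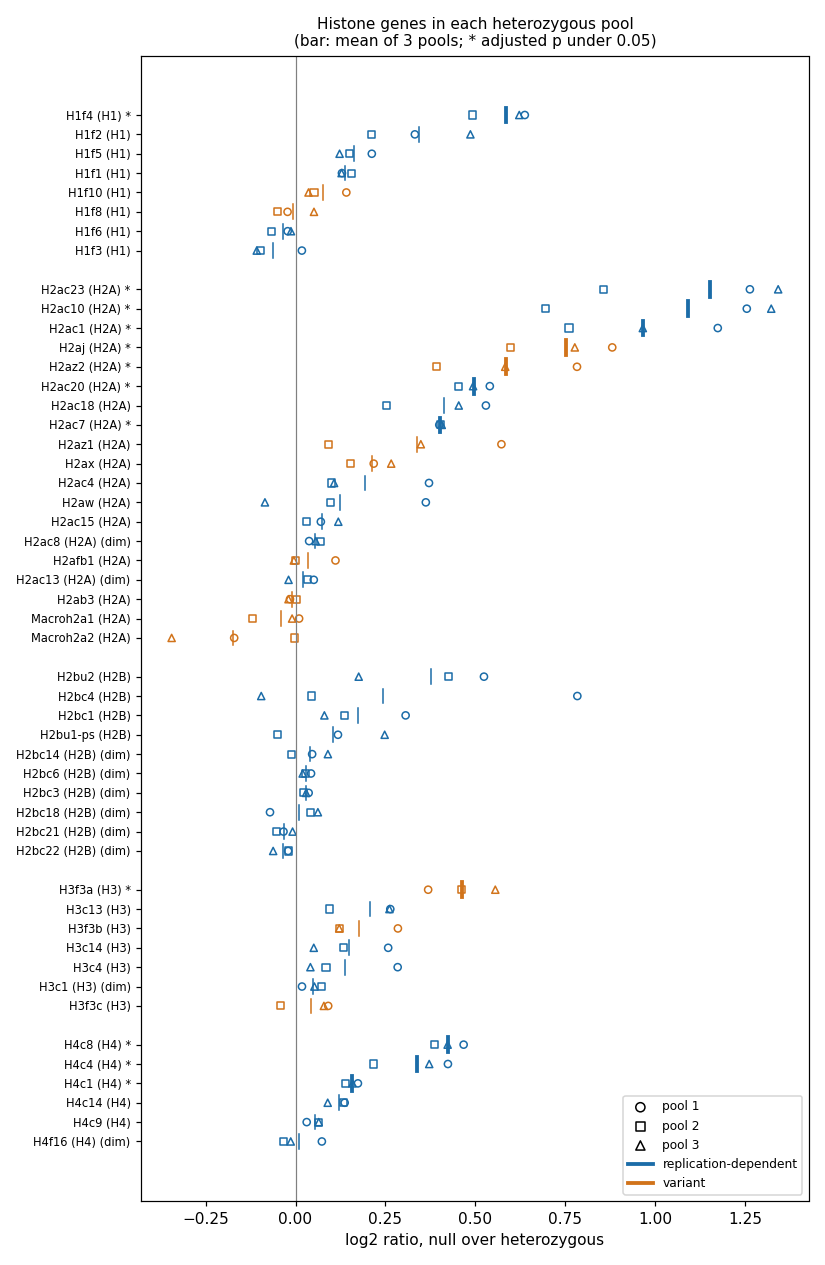
Log2 ratio (null over heterozygous) of each of the 50 histone genes, grouped by histone type. Open symbols are the 3 heterozygous pools, the vertical bar is their mean, asterisks mark adjusted p under 0.05, and "dim" marks genes not above background on at least 3 arrays; 12 genes carry an asterisk, all to the right of 0, and the 4 highest are H2A genes, which with plain background subtraction holds for the top 2 only.

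The smallest adjusted p in the whole table was 0.0260, close to the threshold. With limma, 0 of the 12 calls were kept when any 1 of the 3 pools was left out, when loess was replaced by median centring, with plain background subtraction or with a trended robust variance. The ratios themselves stayed above 0 for all 12 genes in each of those settings. In them 20 to 25 histone genes had an unadjusted p under 0.05, against 25 here.

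With the offset of 50, H2A genes gave the 4 highest ratios, an order that depends on how background is handled. With plain background subtraction H4c4, H4c8 and H1f4 read 1.15, 1.04 and 0.90, where H2ac1 read 1.14 and H2aj 0.89. With an offset of 10 H4c4, H4c8 and H1f4 read 0.73, 0.78 and 0.80, against 0.86 for H2aj. H2A forms a dimer with H2B that caps each side of the nucleosome. H2ac23 (Hist1h2ao) had log2 levels of 9.09, 9.06 and 9.04 in the null RNA, against 7.83, 8.21 and 7.69 in heterozygous pools 1 to 3. Its log2 ratio was 1.15 ± 0.26 (SD, n = 3 pools; adjusted p = 0.0302), or 2.22-fold. The 3 null levels are readings of the same 1 pool and lay close together, so their spread is technical. The heterozygous levels, from 3 pools, lay further apart. H2ac10 (Hist1h2af) read 9.30, 9.13 and 9.32 in the null RNA, against 8.04, 8.44 and 8.00, a log2 ratio of 1.09 ± 0.34 (adjusted p = 0.0432). H2ac1 (Hist1h2aa), which encodes an H2A known from testis, read 9.05, 8.94 and 8.90 in the null RNA, against 7.87, 8.18 and 7.93, a log2 ratio of 0.97 ± 0.21 (adjusted p = 0.0299). H2aj (H2afj), the gene of the variant H2A.J, which differs little from clustered H2A, had a log2 ratio of 0.75 ± 0.14 (adjusted p = 0.0271), with 0.88, 0.60 and 0.78 in pools 1 to 3. In all 4 genes pool 2 gave the lowest ratio, and every one of the 6 arrays was above 0. Both also held for other called genes, H1f4, H4c4 and H4c8 among them. A second H2aj probe, above background on 6 arrays for null RNA and 5 for heterozygous RNA, read 0.04 ± 0.050 and so differed from the brightest one. Neither coding nor probe sequences were used here, and how far the probes of these 4 genes measure 1 common transcript was not tested. Without the 4, 8 of 46 histone genes had risen.

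The 160 bases before the start of these 4 genes, and of the H3.3 gene H3f3a for contrast, are shown because the 4 moved together (RefSeq, GRCm38.p6). Capitals mark the CCAAT box (CCAAT or ATTGG), the TATA box (TATAAA or TTTATA) and the octamer (ATTTGCAT or ATGCAAAT), an element known from H2B promoters.
H2ac23, chr13:21810207-21810366, plus strand: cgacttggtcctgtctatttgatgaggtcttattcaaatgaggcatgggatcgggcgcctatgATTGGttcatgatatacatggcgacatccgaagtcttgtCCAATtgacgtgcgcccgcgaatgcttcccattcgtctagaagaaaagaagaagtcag
H2ac10, chr13:23533715-23533874, plus strand: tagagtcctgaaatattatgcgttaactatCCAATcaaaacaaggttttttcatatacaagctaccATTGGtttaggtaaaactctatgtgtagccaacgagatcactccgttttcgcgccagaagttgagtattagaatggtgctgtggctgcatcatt
H2ac1, chr13:23934277-23934436, plus strand: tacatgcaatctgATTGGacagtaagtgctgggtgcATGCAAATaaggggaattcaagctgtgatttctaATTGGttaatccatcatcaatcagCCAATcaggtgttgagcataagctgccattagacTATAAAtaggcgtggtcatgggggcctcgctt
H2aj, chr6:136808088-136808247, plus strand: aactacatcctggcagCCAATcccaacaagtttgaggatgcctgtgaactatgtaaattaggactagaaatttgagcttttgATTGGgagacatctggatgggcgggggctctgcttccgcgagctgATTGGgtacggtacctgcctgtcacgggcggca
H3f3a, chr1:180813606-180813765, minus strand: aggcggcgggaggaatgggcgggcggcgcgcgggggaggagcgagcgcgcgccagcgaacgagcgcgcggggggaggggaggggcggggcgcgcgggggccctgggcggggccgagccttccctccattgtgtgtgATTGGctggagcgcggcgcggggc

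CCAAT boxes were common to all 5 printed stretches, with 2, 2, 3, 3 and 1 matches in the order shown. The octamer and the TATA box were found in that of H2ac1 only. RefSeq windows were at hand for 43 of the 50 genes, and the 250 bases before the start were searched on both strands; no motif contains another, though neighbours can share end letters. CCAAT was present in 28 of 32 replication-dependent genes (87.5%) and 7 of 11 variants (63.6%), against 34.5% of the windows of all 27025 genes listed. TATAAA was present in 15 of 32 and 1 of 11, against 13%, and the octamer in 9 of 32 and 1 of 11, against 1.61%. Among the 12 genes that rose, 11 held CCAAT, 4 TATAAA and 2 the octamer. Among the 31 others, 24, 12 and 8 did. A match is a description of letters and not of a bound site.

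Of the other H2A genes, 2 from the clusters and 1 variant also rose. H2ac20 (Hist2h2ac) had a log2 ratio of 0.50 ± 0.044 (adjusted p = 0.0260), with null levels of 6.95, 6.98 and 6.99, against 6.41, 6.53 and 6.50. H2ac7 (Hist1h2ad) read 0.40, 0.40 and 0.41 in the 3 pools, the narrowest spread of any histone gene (SD 0.0034, adjusted p = 0.0260). H2az2 (H2afv), 1 of the 2 genes of H2A.Z, a variant found at promoters of active genes, read 0.78, 0.39 and 0.58, a mean of 0.59 ± 0.20 (adjusted p = 0.0471). H2az1 (H2afz), the other H2A.Z gene, read 0.57, 0.09 and 0.35 and did not pass (adjusted p = 0.181). H2ax (H2afx), whose protein is phosphorylated at DNA breaks, read 0.22, 0.15 and 0.27 (mean 0.21 ± 0.057, adjusted p = 0.0517), just over the threshold. In the clusters, H2ac18 (Hist2h2aa1) stood as close, at 0.41 ± 0.14 (adjusted p = 0.0523). The macroH2A genes, whose proteins carry an extra domain and are linked to silent chromatin, had the lowest variant ratios: Macroh2a2 (H2afy2) read -0.17, -0.00 and -0.34 (adjusted p = 0.311), and Macroh2a1 (H2afy) averaged -0.04 ± 0.070 (adjusted p = 0.645). Their other probes, above background on no array, read 0.03 and 0.07 for Macroh2a1 and 0.04 for Macroh2a2. H2ab3 (H2afb3) and H2afb1, short H2A variants known from testis, averaged -0.01 ± 0.012 and 0.04 ± 0.066 and did not pass. The remaining clustered genes H2ac4 (Hist1h2ab), H2aw (Hist3h2a) and H2ac15 (Hist1h2ak) read 0.19 ± 0.15, 0.12 ± 0.23 and 0.07 ± 0.045 and did not pass either.

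**Figure D2:**
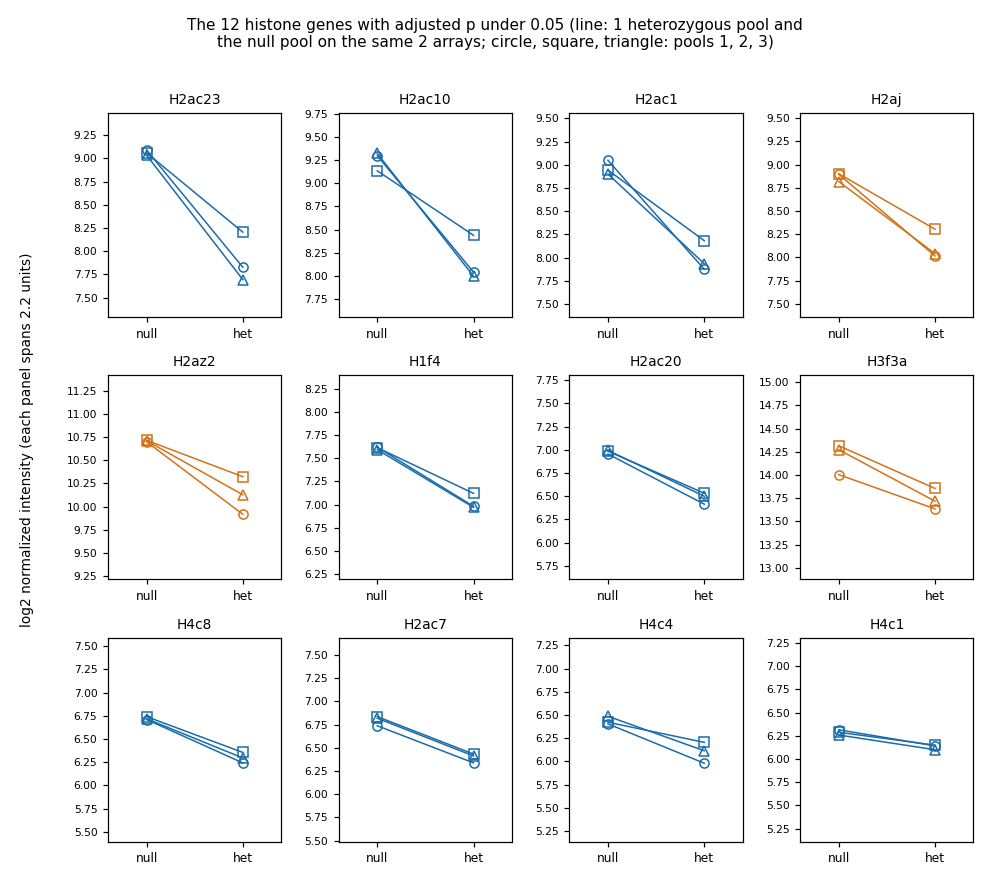
Log2 normalized intensity of the 12 histone genes with adjusted p under 0.05, in the null RNA (left) and the heterozygous RNA (right) of each panel; each line is 1 heterozygous pool and the null pool on the same 2 arrays, blue for replication-dependent and orange for variant genes. Every line is higher on the null side, by 1.15 on average for H2ac23, the largest of the 12, and by 0.16 for H4c1, the smallest.

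H2B, the dimer partner of H2A, gave no call in limma among 10 genes (2 were higher at an unadjusted p under 0.05), with a median log2 ratio of 0.04, against 0.40 for the 11 clustered H2A genes and -0.00 for all genes. Only 4 of the 10 H2B genes were above background on at least 3 arrays, so most had little signal to show a change. The median over those 4 was 0.21, against 0.41 for the 9 clustered H2A genes above background. Those 4 were chosen for naming after their values were seen, except H2bu1-ps. H2bu2 (Hist3h2ba) read 0.52, 0.43 and 0.18 (adjusted p = 0.0876), H2bc4 (Hist1h2bc) read 0.78, 0.04 and -0.10 (adjusted p = 0.600), H2bc1 (Hist1h2ba) read 0.31, 0.14 and 0.08 (adjusted p = 0.184) and the pseudogene H2bu1-ps (Hist3h2bb) read 0.12, -0.05 and 0.25 (adjusted p = 0.489). Pool 1 was far above the others in H2bc4, with a mean of 0.24 ± 0.47. Many H2A and H2B genes are transcribed away from each other out of 1 shared promoter. Such pairs were searched in the RefSeq windows only among genes whose current symbol began with H2ac or H2bc. The members H2aw, H2bu2 and H2bu1-ps were therefore not searched, and members without a window, H2bc4 among them, could not be paired. Of 9 pairs found, 1 had both genes among the members, H2ac1 with H2bc1, 2 germ-line genes whose starts lie 281 bases apart. H2ac1 read 1.17, 0.76 and 0.97, against 0.31, 0.14 and 0.08 for H2bc1 in the same pools, a difference of 0.87, 0.62 and 0.89. Both genes passed background in each RNA on 6 of 6 arrays. H2bc23, the partner of H2ac23, was named Gm13646 on the platform and so was no member; it was well above background on 1 of 6 arrays in each RNA, and gives no comparison.

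The H3 genes showed 1 call, in a variant. H3.3 is deposited independently of replication and is encoded by H3f3a and H3f3b. H3f3a had null levels of 14.00, 14.32 and 14.27, against 13.64, 13.86 and 13.72 in pools 1 to 3, a log2 ratio of 0.46 ± 0.093 (adjusted p = 0.0302). The average joins unlike dye orientations. With the null RNA in Cy5 the 3 arrays read 0.81, 1.16 and 0.95, and with it in Cy3 they read -0.07, -0.24 and 0.16. H3f3a was the 1 called histone gene whose mean was not above 0 in both orientations, at -0.05 on the Cy3 arrays (adjusted p = 0.832), and its dye term in a model of all 6 arrays was 0.51 (limma adjusted p = 0.0447). A second, dimmer H3f3a probe leaned the other way, with 0.07, 0.22 and 0.29 with the null RNA in Cy5, against 0.94, 0.27 and 0.48 with it in Cy3. Its mean over pools was 0.38 ± 0.13, so both probes averaged above 0 although neither was stable between the dyes. H3f3b read 0.28, 0.12 and 0.12 (mean 0.18 ± 0.094, adjusted p = 0.129). Its second probe read 0.17 ± 0.19 and its dimmest -0.05 ± 0.42, so the probes of H3f3b did not share a sign. H3f3c, a further H3.3-like gene, averaged 0.04 ± 0.074. The clustered H3 genes that were above background, H3c13 (Hist2h3b), H3c4 (Hist1h3d) and H3c14 (Hist2h3c1), were above 0 in all 3 pools without passing. H3c13 averaged 0.21 ± 0.097 and H3c4 0.14 ± 0.13. H3c14 passed background on 3 arrays for null RNA and 0 for heterozygous RNA. From the mean levels its ratio was bounded at 1.06-fold or more higher in the null pool, and the gene was not called (limma adjusted p = 0.205).

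**Figure D3:**
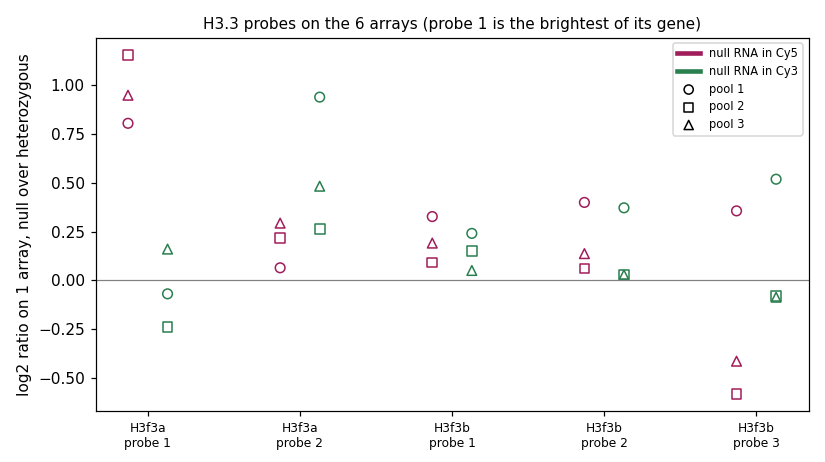
Log2 ratio (null over heterozygous) on each array for the 2 probes of H3f3a and the 3 probes of H3f3b, ordered by brightness within a gene, with the null RNA in Cy5 or in Cy3 and symbols for the 3 pools. The brightest H3f3a probe reads 0.81 to 1.16 in one orientation and -0.24 to 0.16 in the other, the second H3f3a probe 0.07 to 0.29 and 0.27 to 0.94.

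H4, which pairs with H3, and the linker histone H1 added 4 calls. H4c8 (Hist1h4h) read 0.47, 0.39 and 0.42 (mean 0.43 ± 0.041, adjusted p = 0.0261). H4c4 (Hist1h4d) read 0.42, 0.22 and 0.37 (adjusted p = 0.0489), and its brightest probe passed background on 6 arrays for null RNA but on 3 for heterozygous RNA. Its second probe, above background on 1 array in each RNA, read 0.07 ± 0.055. H4c1 (Hist1h4a) had a small and even ratio of 0.17, 0.14 and 0.16 (adjusted p = 0.0478). All 3 were dim, with mean scanner signals of 69.7 to 98.2 in the null RNA and 58.3 to 68.4 in the heterozygous RNA over backgrounds of 41.3 to 43.5, and the offset shrinks such ratios. H4c14 (Hist2h4) and H4c9 (Hist1h4i) averaged 0.12 ± 0.027 and 0.05 ± 0.019 and did not pass. H1f4 (Hist1h1e), the gene of linker histone H1.4, had null levels of 7.62, 7.61 and 7.59, against 6.98, 7.12 and 6.97, a log2 ratio of 0.58 ± 0.079 (adjusted p = 0.0261). H1f2 (Hist1h1c), the gene of H1.2, read 0.33, 0.21 and 0.49 (adjusted p = 0.0683), and its second probe 0.13 ± 0.17. H1f5 (Hist1h1b) and H1f1 (Hist1h1a) averaged 0.16 ± 0.046 and 0.14 ± 0.016 and did not pass. Among clustered genes above background, the lowest ratios were those of H1f3 (Hist1h1d) at -0.06 ± 0.069 and of the testis gene H1f6 (Hist1h1t) at -0.03 ± 0.029. A second H1f3 probe, above background on 2 arrays in each RNA, read 0.05 ± 0.056. H1f10 (H1fx) and the oocyte gene H1f8 (H1foo) averaged 0.08 ± 0.057 and -0.01 ± 0.053.

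The other 10 members did not reach the criterion of 3 arrays. For 6 of them, H2ac8 (Hist1h2ae), H2ac13 (Hist1h2ai), H2bc3 (Hist1h2bb), H2bc14 (Hist1h2bm), H3c1 (Hist1h3a) and H4f16 (Hist4h4), no array showed signal well above background in either RNA, and ratios are left out. H2bc22 (Hist1h2bp) passed background on 0 arrays for null RNA and 2 for heterozygous RNA, and was not called (limma adjusted p = 0.535). H2bc6 (Hist1h2be), H2bc21 (Hist2h2be) and H2bc18 (Hist2h2bb) were above background on 2 or fewer arrays in either RNA, and did not pass. In counts and medians all 50 were kept.

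As classes, the replication-dependent genes had a median log2 ratio of 0.14 and the variants one of 0.08, against -0.00 for all genes. By pool, the replication-dependent median was 0.21, 0.10 and 0.09 and the variant median 0.14, 0.05 and 0.08. Variant minus replication-dependent was -0.07, -0.04 and -0.01 by pool and -0.06 on the 3-pool means, with an SD of the within-pool differences of 0.030. Among genes above background it was -0.19, -0.09 and -0.08 by pool and -0.12 on the 3-pool means (SD of the within-pool differences 0.062). The variant median was the lower one in each of the 3 pools in both sets, and the size depended on whether dim genes were kept. All 13 variants were in both sets, though some had little signal. H1f10, whose ratio is the variant median, had mean scanner signals of 61.4 (null) and 56.6 (heterozygous) over backgrounds of 41.7 and 40.8. The order of the classes therefore holds for these sets only, and was not tested among brighter genes. Clustered H2A genes stood highest of the types, with a median of 0.40 ± 0.087 (SD of the pool medians), while the variant H2A median was 0.12 ± 0.061. The medians of the clustered H1, H3 and H4 genes were 0.15, 0.14 and 0.14. With variants included, those of H1, H2A and H3 were 0.11, 0.21 and 0.15. By cluster, 8 of 26 Hist1, 1 of 7 Hist2, 0 of 3 Hist3 and 0 of 1 Hist4 genes rose, and the first 3 clusters had medians of 0.15, 0.15 and 0.12. Genes in a class share the arrays and many share sequence, so no test was made between classes.

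**Figure D4:**
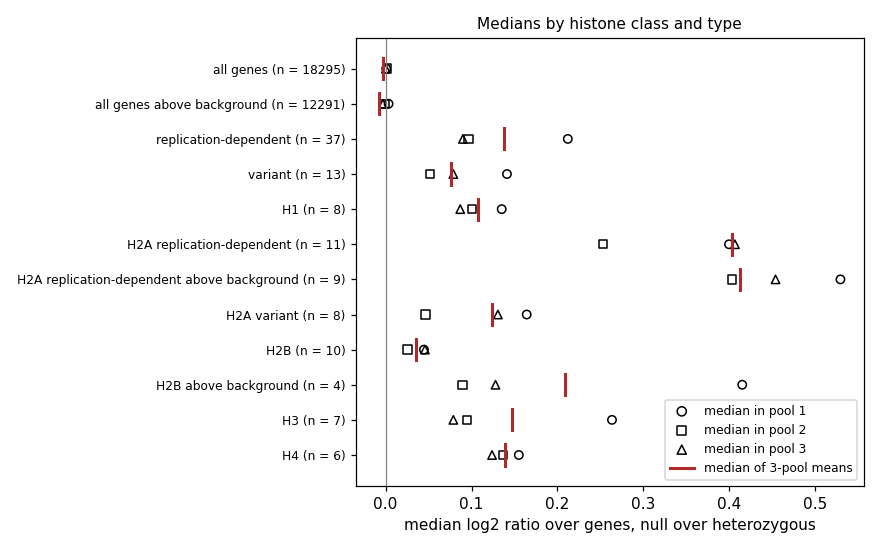
Median log2 ratio (null over heterozygous) over the genes of each class or type, with open symbols for the median in each of the 3 pools and a red bar for the median of the 3-pool means. All genes sit at -0.00, the replication-dependent genes at 0.14, the variants at 0.08, clustered H2A at 0.40 (0.41 above background) and H2B at 0.04 (0.21 above background).

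Of 24 measured genes that process histone mRNA 1 rose and 0 fell, against 3.09% and 1.87% of all genes, with a median of -0.00: Snrpg, a core protein of small nuclear ribonucleoproteins, at 0.33 ± 0.098 (adjusted p = 0.0462). Slbp, whose protein binds the stem-loop of replication-dependent mRNAs, read 0.17, -0.20 and 0.16 and did not pass (adjusted p = 0.864), nor did Npat, a coactivator of the clusters, at -0.25 ± 0.25. Lsm10, a part of the U7 particle that cuts these mRNAs, read 0.46, 0.59 and 0.23 (adjusted p = 0.0724). Of 35 measured histone chaperones 1 rose and 3 fell, against the same shares of all genes, with a median of -0.02. Rbbp4, a subunit of the assembly factor CAF-1 and of several repressor complexes, rose by 1.00 ± 0.042 (adjusted p = 0.0260). Nap1l5, a relative of the H2A-H2B chaperone NAP1, fell by 0.48 ± 0.12 (adjusted p = 0.0372), Anp32a, a chaperone-like acidic nuclear protein, by 0.41 ± 0.099 (adjusted p = 0.0360), and Atrx, which loads H3.3 at repeats, by 0.19 ± 0.025 (adjusted p = 0.0408).

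Of 33 measured S-phase genes, 0 rose and 0 fell in limma, with a median of 0.02; at an unadjusted p under 0.05, 7 were higher and 2 lower. For this and the following lists, 3.09% of all genes rose and 1.87% fell, and 10.8% were higher and 9.66% lower at an unadjusted p under 0.05. Pcna, the sliding clamp of DNA polymerase, read 0.06, -0.08 and 0.01 (adjusted p = 0.986). The summed normalized intensity of this list was 5932 to 7728 in the null RNA and 5429 to 8125 in the heterozygous RNA over the 3 pools. Of 19 measured markers of dividing cells 3 rose and 0 fell, and 12 were above background; their sum was 1538 to 1559 in the null RNA and 1346 to 1461 in the heterozygous RNA. Cdk1, Bub1b, Kif11 and Tpx2 were above background on no array in either RNA. The 3 that rose were Cenpa, whose product is the H3 variant of the centromere, at 0.38 ± 0.018 (adjusted p = 0.0261), Cdc20 at 0.32 ± 0.081 (adjusted p = 0.0403) and Birc5 at 0.22 ± 0.042 (adjusted p = 0.0408). Cenpa lies outside the symbol rule and was not counted among the variants. Of 15 progenitor and radial glia markers 1 rose (Id1, 0.50 ± 0.054) with sums of 6490 to 6592 in the null RNA and 5203 to 6087 in the heterozygous RNA. Of 10 erythroid markers, 1 rose (Hbb-y, 0.37 ± 0.060), with sums of 5243 to 5786 in the null RNA and 2916 to 4691 in the heterozygous RNA. Of 12 post-mitotic markers 0 rose and 2 fell, Mapt at -0.84 ± 0.18 and Elavl3 at -0.50 ± 0.14, with sums of 7334 to 8618 in the null RNA and 11892 to 12517 in the heterozygous RNA. Vascular markers gave 0 rises and 2 falls of 11, with Pecam1 above background on no array in either RNA and sums of 907 to 930 in the null RNA and 1076 to 1284 in the heterozygous RNA. Microglial markers gave no call in 8 (1 was higher at an unadjusted p under 0.05), with Tyrobp above background on no array and sums of 265 to 328 in the null RNA and 253 to 306 in the heterozygous RNA. Dopaminergic markers gave 0 rises and 1 fall of 15 (Slc6a3), with sums of 878 to 1020 in the null RNA and 972 to 1322 in the heterozygous RNA. In limma at an unadjusted p under 0.05, 5 dopaminergic, 4 post-mitotic and 4 vascular markers were lower, and 0 of each were higher. At that level 4 progenitor and radial glia markers were higher and 1 lower. For erythroid markers it was 3 higher and 0 lower, and for dividing cells 3 higher and 1 lower. The part of these cell types in the histone ratios was not tested.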

How the data were processed

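Sorted neurons were profiled on 6 two-colour arrays. The authors deposited scanner intensity values per spot with local background and no normalization, per the file headers, and normalized intensity values per dye. Their deposited series table holds the log2 of normalized Cy5 over Cy3, equal to the per-dye values on every array, with medians of -0.00058 to 0.0023. How the authors normalized is not stated by the labels or headers.

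From the scanner intensities of 45220 spots (4046 controls), background was corrected with normexp (offset 50), loess was run within arrays (controls weighted 0), and ratios were turned to null over heterozygous. Of 41174 probes 34186 had 1 gene symbol, 0 several and 6988 none. Symbols were updated with the RefSeq table of GRCm38.p6, and the brightest probe stood for a gene. The 2 arrays of a pool are technical swaps and were averaged, so n = 3 pools; the null pool was 1, and its spread is in no p-value. Ratios were tested against 0 with limma 3.58.1 in R 4.3.3, Benjamini-Hochberg over 18295 genes. Well above background meant a signal more than 2 SDs of the local background over its median, and a gene was above background with at least 3 of 6 arrays in either RNA (12291 genes). Levels are log2 intensities after loess and Aquantile scaling; sums are of their linear values less the offset. The fit was tested on simulated data, and no result of that test is given or relied on here. Depth has no counterpart on arrays: the number of arrays and pools limits the precision.

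Named were histone genes with adjusted p under 0.05, variants above background, the 6 highest and 6 lowest clustered genes above background, and up to 4 called members per list. Other members were named after their values were seen. The members, lists and tests were chosen with earlier results of these data known. Alternatives covered background correction, offset, normalization, the authors' values, dim genes, probes, dyes, the pool as a block, the variance model, each pool left out and updated symbols.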

Additional observations from a re-analysis of the deposited data

Results flagged for a closer look

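Of 28 named histone genes, 1 had an array that stood apart by Dixon's test over its 6 arrays, which chance alone does for about 1 gene in 20. The gene was H2ac20, with a log2 ratio (null over heterozygous) of 0.36 in pool 2, null dyed Cy5, while its other 5 arrays lay between 0.49 and 0.56.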

How the results depend on the processing

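The count of 12 histone genes that rose stayed at 9 to 16 under 7 alternatives (uncorrected signals, the authors' values, dim genes left out, probes averaged, either dye orientation alone, updated symbols), and 0 fell in any setting run (limma, 25 at an unadjusted p under 0.05). These counts are out of 50 members, except for 14 of 40 with dim genes left out and 10 of 40 with updated symbols, which changed the membership. The count was 19 with an offset of 10, and 21 with the 6 arrays paired by pool as a random replicate block and a dye term, where the whole table gave 2221 calls in place of 908. It was 0, as was the whole-table count, with plain background subtraction, median centring and the trended robust variance; the cause was not tested. Leaving out each pool gave 0 to 0 for both counts, with fewer samples. In these settings 2604 to 3305 genes of the whole table had an unadjusted p under 0.05, against 3753. The offset of 10 gave 1621 calls in the whole table. The median log2 ratio of replication-dependent genes moved to 0.30 and of variants to 0.18 with that offset, a difference of -0.12, and to 0.39 and 0.32 with plain subtraction; a smaller offset shrinks dim ratios less, and with subtraction H4c4, H4c8 and H1f4 passed H2aj. With genes above background only, planned or as a subset chosen after seeing the data, the difference was -0.12. H3f3a reversed to -0.048 with the null RNA in Cy3 alone. Among the 12 genes, H4c1 was not called with genes above background only or in either orientation alone, H4c4 not without background correction, with the authors' values or with the null RNA in Cy3, and H2az2 not with the null RNA in Cy3. H2ax, at an adjusted p of 0.0517, passed in 4 settings, with adjusted p from 0.0104 to 0.0489. Leaving out H3f3a or the 4 H2A genes with the highest ratios, both chosen after seeing the data, left 11 and 8 calls. Low signal over background limits what can be said of most H2B genes and of the H4 genes.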
